A study of Botryllus schlosseri with 42 samples.

Results

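In whole colonies of the ascidian Botryllus schlosseri, a colony-forming sea squirt, there were 181 contigs whose mean read count was higher in the infertile than in the fertile libraries at most stages of the budding cycle. A contig is a stretch of assembled expressed sequence. The members were chosen on the deposited group means, by the ratio s = (infertile mean + 5)/(fertile mean + 5). A contig was a member when s was at least 4 in 5 or more of the 7 stages, which 181 of 50106 contigs were. Because these values chose the members, the infertile against fertile contrast is described below with values and without a test.

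RNA was sequenced at 7 stages, from A1 through A2, B1, B2, C1 and C2 to D, from 3 fertile and 3 infertile libraries per stage, 42 in all. The fertile colonies are labelled as hermaphrodites, with testes and eggs, and the infertile colonies as infertile. All were raised in the laboratory. In each group 1 of the 3 libraries at every stage was a pool of several genotypes, and the other 2 came from single genotypes. The single genotypes were SB801 and SB841 in the fertile group and SB-BB-001 and SB802d in the infertile group. Genotype SB841 was a fertile sample and also entered the infertile pool, and SB802a was in the fertile pool while SB802d was an infertile sample. Nothing in the labels says that libraries of 1 genotype at different stages came from separate colonies, so the p-values below measure the spread between these libraries.

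Botryllus grows by blastogenesis, a weekly cycle in which buds develop while the feeding adult bodies, the zooids, live on until takeover at stage D, when they die and are resorbed. Colonies move in and out of fertility, and an infertile colony goes on budding and feeding without ripe gonads. Contigs are named here by their closest homolog where one is listed, and a homolog's role in vertebrates need not be its role in an ascidian. RNA of a whole colony cannot tell fewer cells of a type from less RNA per cell.

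The deposited tables give group means, and the whole read pairs behind each mean were solved from them, so that every member has a value in each of the 42 libraries. The libraries held between 3009644 and 11354508 read pairs on the contigs solved. Within a group at a stage, library 1 is the one with the largest size factor and library 3 the one with the smallest, so the numbers carry no genotype and do not link stages. The group labels were checked on 6 gonad markers of the study. Vitellogenin, the yolk protein precursor (CAP3_round1_contig_5534), had 42.4, 9.13 and 84.3 normalized counts in the infertile libraries of A1 and 2184, 2194 and 1003 in the fertile ones. The testis kinase tsk-1 (Bot_rep_c45338) had 8.84, 9.13 and 2.06 against 1422, 1322 and 1331. Some libraries stood apart in part of these markers. In infertile library 1 the sum of the 5 markers other than vitellogenin was 1502 at B2, 2615 at C1 and 2830 at C2, and the last 2 sums lie within the fertile ranges, from 1669 to 6435 at C1 and from 2251 to 3224 at C2. These sums came from the testis markers, such as otoancorin (CAP3_round1_contig_9042) at 1525 and tsk-1 at 719 at C1. At C2 tsk-1 went against the label, with an infertile mean of 420 and a fertile mean of 45.0. Infertile library 1 of C2 had 714 read pairs of tsk-1, against 48, 15 and 12 in the fertile libraries. The egg markers followed the label in infertile library 1. Vitellogenin was at 136 at C1 and 678 at C2 against fertile means of 44132 and 33670. The receptor ldlr (Bot_rep_c45532) was at 8.08 and 10.4 against fertile means of 576 and 846. Fertile library 3 of A2 was low for its group, with a sum of 1106 against 7379 and 10591, but above the infertile sums of A2, from 37.2 to 277. Of its read pairs, 367 were from otoancorin, against 9 to 142 in the infertile libraries. It had only 8 read pairs of tsk-1, against 1474 and 896 in the other fertile and 2 to 6 in the infertile libraries. For vitellogenin it had 34, against 2955 and 3952 in the other fertile and 8 to 27 in the infertile libraries. These 2 markers were thus near the infertile level there. The rule gave 199, 193 and 190 contigs without infertile library 1 of B2, C1 or C2, and 202 without fertile library 3 of A2.

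Of the 181 members, 89 passed the ratio in 5 stages, 40 in 6 and 52 in all 7. The median s of the members was lowest at C1, at 5.48, and highest at B1, where 172 members passed. The fewest, 127, passed at B2. Over all contigs the share that passed was 0.814% in A1, 1.02% in A2, 1.34% in B1, 1.16% in B2, 0.754% in C1, 1.46% in C2 and 1.57% in D. At the threshold, the fifth largest s of Bot_rep_c43375, Bot_c13538 and Bot_c17283 was 4.04, 4.05 and 4.08. Just outside it were Bot_rep_c55287, Bot_rep_c53276 and Bot_rep_c50020, at 3.99, 3.98 and 3.97. Each of these 6 contigs had its highest infertile value at most stages in the same library as most members.

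The library values showed what the group means do not: at each stage, most members had over 2/3 of the infertile sum in 1 library. It was so at all 7 stages for 71 members. In 632 of the 1267 combinations of member and stage, 2 infertile libraries were above every fertile library. In 151 all 3 were, in 456 only 1 was and in 28 none was. The median member had 42.4, 303 and 2.06 normalized counts in the infertile libraries of A1 and 3.24, 24.8 and 4.69 in the fertile ones. At D the medians were 21.5, 232 and 2.29 in the infertile and 1.82, 1.89 and 3.98 in the fertile libraries. In each case infertile library 2 stood far above the rest, and infertile library 3 was within the range of the fertile libraries or near it.

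The library with the highest value for most members is called the leading library of its stage below. It was library 2 at A1, B1 and D and library 3 at A2, B2, C1 and C2. It was the highest infertile library for 149 of the 181 members in A1, 148 in A2, 148 in B1, 148 in B2, 150 in C1, 146 in C2 and 154 in D. The next library, called the second, was library 1 at A1, B1 and D and library 2 at the other stages, and it was the highest for between 24 and 33 members. The remaining library, called the third, was the highest for 2 to 4. These names follow the member values, so they describe the pattern and are not groups of the study.

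At every stage these medians kept that order. The medians of the members lay between 221 and 329 normalized counts in the leading, between 21.5 and 66.6 in the second and between 2.06 and 3.46 in the third library. The fertile libraries had medians from 1.69 to 24.8. Within a stage, the median of the third infertile library was inside the fertile range at A2, C2 and D. It was below all fertile medians at A1, B1, B2 and C1. The following shares are of the read pairs on the contigs solved. The members took between 0.733% and 1.00% in the leading library and between 0.216% and 0.278% in the second. They took between 0.0695% and 0.0917% in the third and between 0.0345% and 0.156% in a fertile library. Contigs left unsolved held 46.8% to 74.8% of the summed signal of a group, so shares of all read pairs would be lower. For 103 members the leading library was the highest infertile one at all 7 stages, and for 9 members at none.

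**Figure D1:**
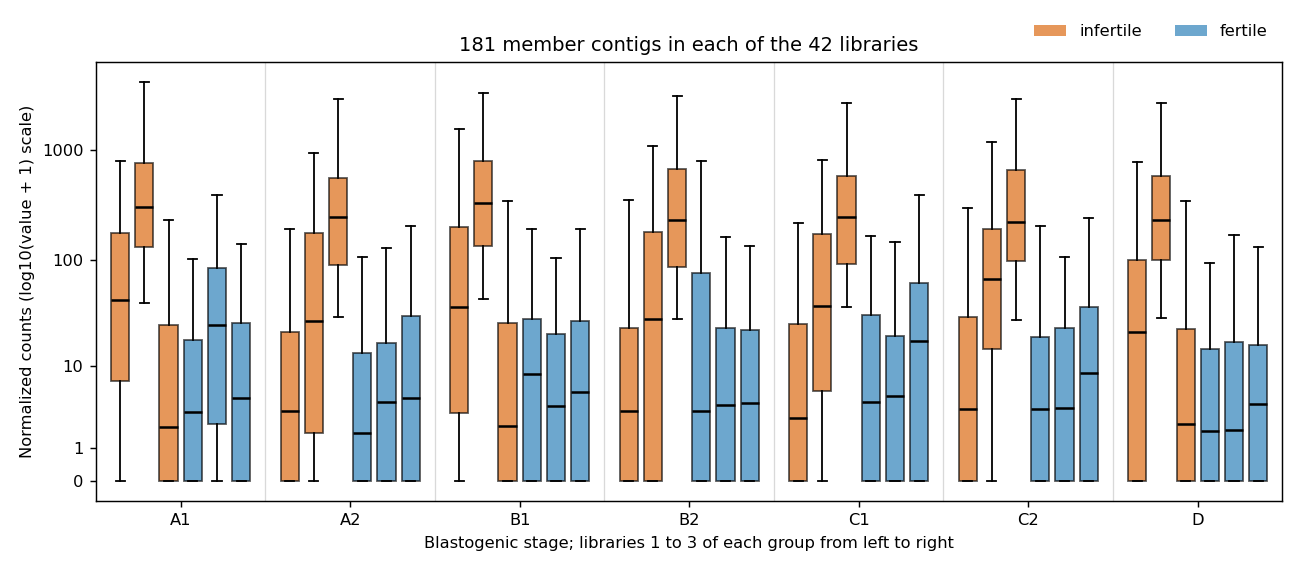
Normalized counts of the 181 members in each of the 42 libraries, by stage, on a log10(value + 1) scale. Boxes span the middle of the members with the median as a black line, and whiskers run from the 5th to the 95th percentile. Orange boxes are infertile and blue boxes fertile libraries, numbered 1 to 3 from left to right. At each stage 1 infertile box, with a median between 221 and 329, stands above the others. Another infertile box lies at or below the level of the fertile ones.

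Gonad markers moved in another way between these libraries. The sum of 5 markers (tsk-1, tsk-6, otoancorin, ldlr and zp-1) was higher in the third library than in the leading library at 6 of the 7 stages, for example 364 against 73.0 normalized counts at A1 and 2830 against 53.1 at C2. At D the leading library had the highest infertile sum, 372, with 234 in the third library. No infertile library had more than 1 of the 6 markers at 0. Whether gonad content, genotype or pooling plays a part in the member values was not tested, and the recovered libraries were not assigned to genotypes here.

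The leading library was not singular in the number of contigs that rest on it. Over all contigs with a mean of at least 10 over the 6 libraries of a stage, between 172 and 326 had over 2/3 of the sum of the 6 in the leading library. The second library held between 139 and 239 such contigs, the third between 25 and 192, and a fertile library between 0 and 293. Within a stage, the leading library held the most such contigs at A1, B1 and D, with 318, 326 and 287. At A2, B2 and C1 a fertile library held the most, with 253, 293 and 242. At C2 the second library did, with 222.

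Over 2/3 of the summed infertile value lay in 1 library for 970 of the 1267 combinations of member and stage, or 76.6%. The count was 142 of 181 members in A1, 139 in A2, 147 in B1, 137 in B2, 138 in C1, 127 in C2 and 140 in D. Among all contigs with an infertile mean of at least 15, the lowest mean that can reach s = 4, the share was 13.3% in A1, 12.8% in A2, 14.1% in B1, 16.8% in B2, 13.5% in C1, 12.7% in C2 and 10.6% in D. A high share goes with a high s in general: among the contigs that passed s at a stage without being members, it was between 60.2% at D and 80.3% at B2. Contigs higher in fertile libraries by the inverse rule numbered 313, and 40.5% of their 2152 combinations with library values had over 2/3 of the fertile sum in 1 library. These shares are set side by side as descriptions, since each list was chosen on the same means.

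**Figure D2:**
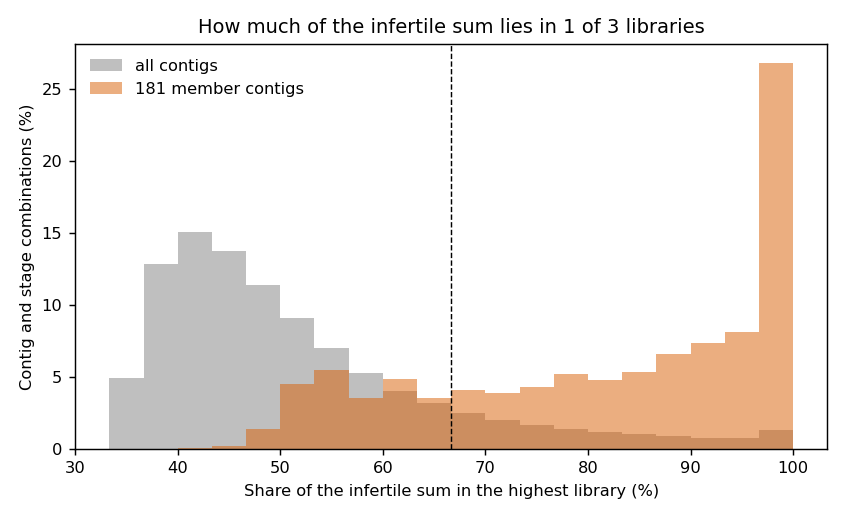
Share of the summed infertile value held by the highest of the 3 infertile libraries (horizontal axis, percent), for combinations of contig and stage with an infertile mean of at least 15 (vertical axis, percent of combinations). Gray is all contigs and orange the 181 members, and the dashed line marks 2/3. The median share was 85.9% for the members and 47.6% for all contigs.

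For 71 members the share exceeded 2/3 at all 7 stages, and for 5 members at none. Every infertile library lay above every fertile library in 151 of the 1267 combinations. By stage these were 14 members in A1, 18 in A2, 18 in B1, 15 in B2, 15 in C1, 36 in C2 and 35 in D. Over all contigs with reads, 5.58% had no overlap in this direction in A1, 5.20% in A2, 6.07% in B1, 3.08% in B2, 5.04% in C1, 5.63% in C2 and 9.33% in D. The members were at 7.73% in A1, 9.94% in A2 and in B1, 8.29% in B2 and in C1, 19.9% in C2 and 19.3% in D. The rule used this contrast, so nothing is read from these shares.

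No member had its infertile libraries apart from its fertile ones at all 7 stages or at 6, and 97 of the 181 had them apart at none. In 632 combinations 2 infertile libraries were above the highest fertile library, in 456 only 1 was, and in 28 none was. Higher in infertile colonies thus describes the group means of these contigs, and for most members not each infertile library.

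**Figure D3:**
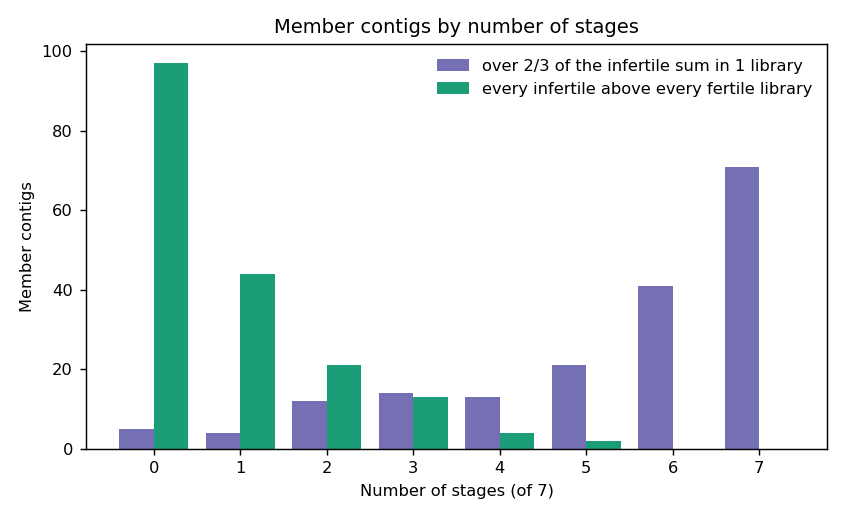
Number of member contigs (vertical axis) by the number of stages (horizontal axis, of 7) at which over 2/3 of the infertile sum lay in 1 library (purple) or every infertile library was above every fertile library (green). The purple bar is highest at 7 stages, with 71 members, and the green bar at 0 stages, with 97.

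The rule was applied again without the leading library at every stage, a choice made after the data were seen. That library was picked because it was the highest for most members. A lower s for most members therefore follows from the choice, and the values are a description, not a test. It then gave 41 contigs, of which 26 were among the 181. The median over members of the median s fell from 7.15 with 3 infertile libraries to 1.82 with 2, and 24 members had a median s below 1. Among the 26 members kept were CCTT6305.g1, whose median s went from 100 to 9.03, and CAP3_round1_contig_1109, whose median s went from 51.5 to 76.8. Of the members with a named homolog, only the collectin-10 homolog (Bot_rep_c36137) was kept.

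**Figure D4:**
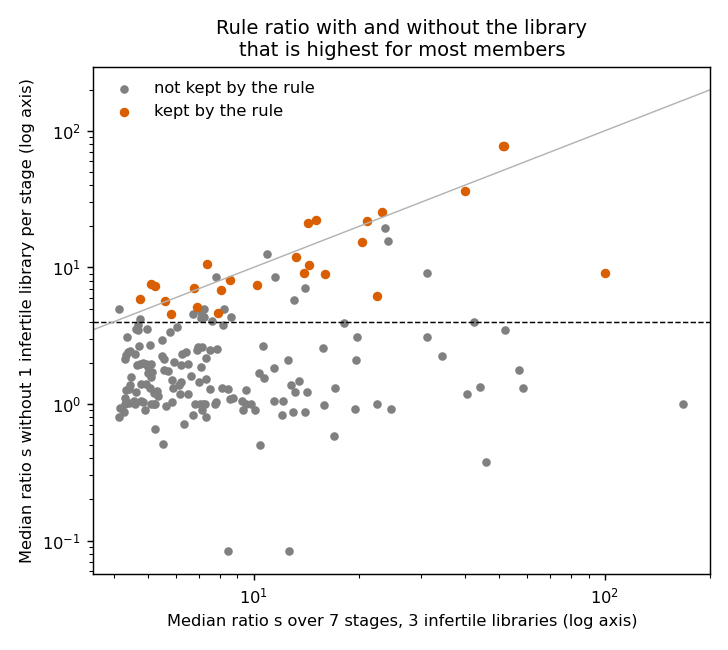
Median s over the 7 stages with all 3 infertile libraries (horizontal, log axis) against the median without the leading library of each stage (vertical, log axis), 1 point per member. The dashed line is at 4 and the gray line marks equal values. The 26 members that the rule kept are orange, and most of the 181 points lie below the dashed line.

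Of the 181 members, 84 appear in the supplementary sheets used, and 25 of these have a homolog named in at least 1 of 5 species, 23 of them in human. The sheets used were those for A1, A2, B1, B2 and C1, and those for C2 and D were not read. For the 97 members not listed it is not known whether a homolog exists. Among the listed members 29.8% had a homolog, against 52.8% of the 4967 contigs listed and 66.4% of the listed contigs higher in fertile libraries. Contigs were put in classes by words in the homolog names. Lectins, recognition and adhesion held 4 of the 25 members and 133 of the 2623 listed contigs with a homolog. Signalling, transport and enzymes held 5 and 422, and all 5 members there are transferases. The nuclear class held 3 and 125, the cytoskeleton 1 and 96, and the chaperones 1 and 24. Proteases and their inhibitors held 0 and 137 and mobile elements 0 and 6, while 11 and 1728 fell in no class. With so few members per class, nothing is read from these counts. All roles below are known from vertebrates, not from Botryllus.

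The most one-sided member was Bot_c29171, a homolog of the collagen alpha-5(VI) chain, a matrix collagen that forms beaded filaments. In the leading library it had 2808 normalized counts in A1, 2489 in A2, 2975 in B1, 3105 in B2, 2393 in C1, 2272 in C2 and 2377 in D. The second library had 0 at 6 stages and 1.85 at C2, and the third 0 at all 7. Of the 21 fertile libraries 20 had 0, and library 3 of C1 had 4.33. A count of 0 allows up to 3 read pairs, so the contig was at a steady high level in 1 library per stage and at or under the limit of detection in almost all others. Its median s was 167, the largest of all members.

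The other adhesion and matrix homologs did not share 1 pattern. Bot_c7291, a homolog of von Willebrand factor A domain-containing protein 2, had between 579 and 959 normalized counts in the leading library and 0 in the third at every stage. Its second library was at 0 at B2, C1 and D, at 7.71 at B1, and at 214, 455 and 194 at A1, A2 and C2. Fertile values were 0 in 18 of 21 libraries, with 198 in library 1 of B2. This contig was thus at 0 in some infertile libraries and well above it in a fertile one.

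The member with the highest mean was CAP3_round1_contig_9998, a homolog of P-selectin, an adhesion receptor of platelets and vessel walls that binds sugars. The leading library had 11906 normalized counts in A1, 21711 in A2, 26610 in B1, 23946 in B2, 26229 in C1, 23369 in C2 and 9597 in D. The second library ranged from 1079 to 5108 and the third from 1973 to 3713. The 21 fertile libraries ranged from 1072 to 3277, with a median of 1852. Here every library had the transcript, and all 3 infertile libraries were above all fertile ones at C2 and D only.

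Bot_rep_c36137, the homolog of collectin-10, a soluble lectin of innate immunity, was highest in the second library at 5 stages. That library had 417 normalized counts in A1, 1.69 in A2, 776 in B1, 1357 in B2, 0 in C1, 209 in C2 and 225 in D. The leading library had from 31.0 to 306, and the third had 0 throughout. Among fertile libraries 16 of 21 were at 0, while library 3 of C1 had 407 and library 3 of A2 had 203. At A2 and C1 the highest of the 6 libraries was therefore a fertile one.

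CAP3_round1_contig_315, listed as a homolog of human tenascin-X and of a ficolin-1-like Ciona protein, ranged from 234 to 329 in the leading library. The second library reached 265 at C2 and 485 at D but was between 8.46 and 52.4 at the other stages, and the third ranged from 29.4 to 55.0. Fertile libraries had 2.42 to 56.4. Its groups did not overlap at 3 stages, B1, B2 and D.

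Bot_c13895, a homolog of angiopoietin-related protein 2, a secreted protein with a fibrinogen domain, was 1 of the 2 members with no overlap at 5 stages. Its infertile libraries 1 to 3 had 249, 838 and 347 normalized counts at A1, 101, 279 and 579 at A2, 187, 927 and 99.6 at B1, and 273, 350 and 964 at B2. They had 132, 217 and 504 at C1, 135, 242 and 430 at C2, and 209, 549 and 135 at D. All infertile values were at 99.6 or more. The fertile libraries had 56.7, 359 and 39.8 at A1, 40.5, 44.5 and 39.2 at A2, 86.4, 75.1 and 27.0 at B1, and 192, 27.4 and 42.7 at B2. They had 49.4, 33.9 and 186 at C1, 29.3, 42.7 and 32.1 at C2, and 56.5, 47.3 and 39.8 at D. The groups did not overlap at A2, B1, B2, C2 and D. At A1 fertile library 2 and at C1 fertile library 3 were within the infertile range, and the leading library held over 2/3 of the sum at 1 stage only.

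The other, Bot_rep_c42864, has no homolog and was apart at A1, A2, B1, B2 and C2. It ranged from 64.3 to 623 normalized counts in the leading, 26.5 to 109 in the second and 11.6 to 127 in the third library, and from 0 to 79.5 in the fertile ones.

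Bot_rep_c53994, a homolog of multiple epidermal growth factor-like domains protein 11, did not overlap at A1, A2, B1 and D. It had from 1466 to 2492 normalized counts in the leading, 154 to 1555 in the second and 169 to 346 in the third library. The fertile libraries ranged from 65.1 to 797, the last in library 1 of B2.

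**Figure D5:**
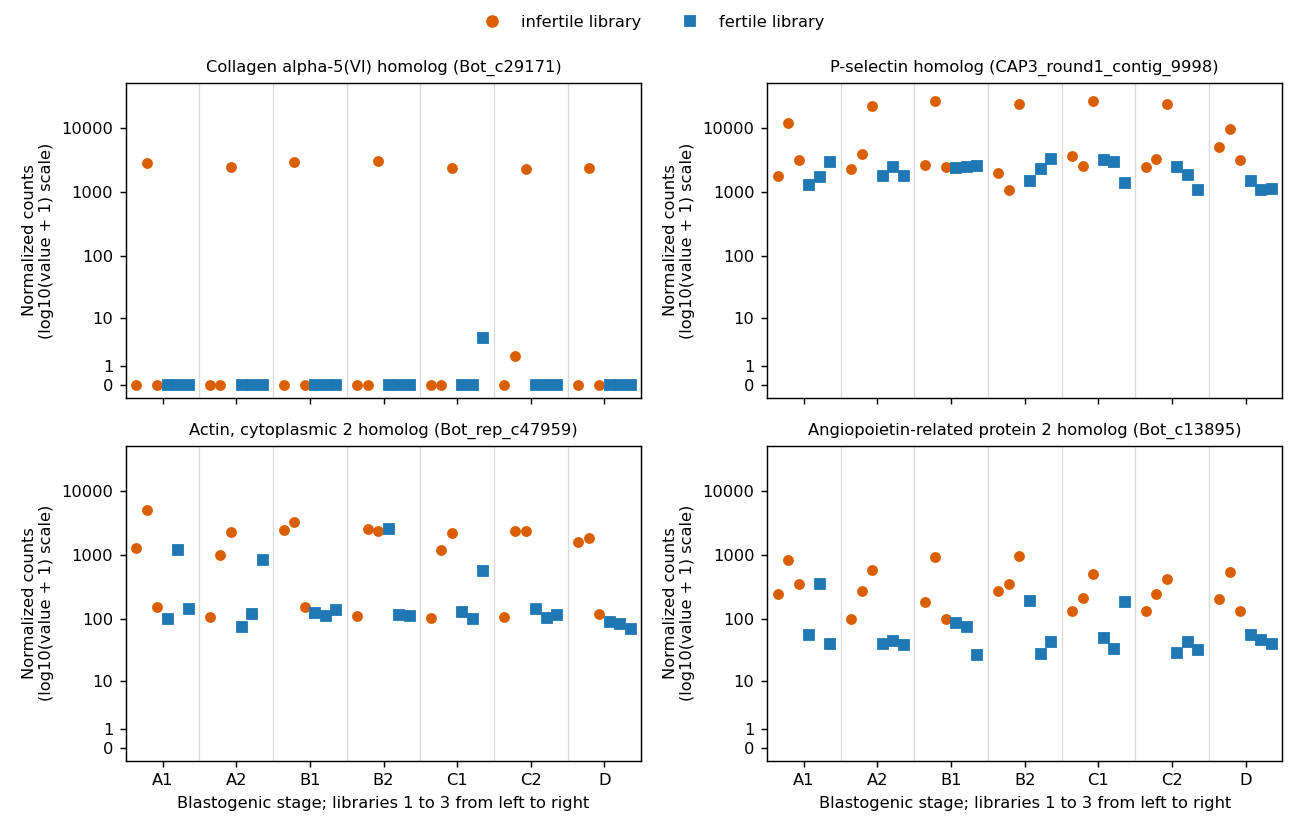
Normalized counts per library of 4 members with a homolog, by stage, on a log10(value + 1) scale, with libraries 1 to 3 of each group from left to right. Orange circles are infertile and blue squares fertile libraries. The collagen homolog is at 2272 or more in 1 infertile library per stage and at or near 0 in the rest. The P-selectin homolog is high in 1 infertile library, the actin homolog in 2 infertile and some fertile ones, and the angiopoietin-related homolog is higher in all 3 infertile libraries at 5 stages.

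Enzymes that build or modify sugar chains were among the members. Bot_c25692 is a homolog of polypeptide N-acetylgalactosaminyltransferase 13, which starts O-linked sugar chains on proteins. It had between 284 and 867 normalized counts in the leading, 38.9 to 526 in the second and 0 to 3.46 in the third library. Fertile libraries were at 0 in 16 of 21 and reached 105 in library 3 of C2. The third infertile library was again like the fertile ones.

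The contigs Bot_c28236 and Bot_c28237 are both homologs of alpha-(1,3)-fucosyltransferase, which adds fucose to sugar chains. Over the 42 libraries their log2 values had a Pearson r of 0.97 and a Spearman rho of 0.91, given as a description since the points share stages and groups. Whether they are parts of 1 transcript or share reads was not tested, so they are read as 1 observation. Bot_c28236 had 72.1 to 265 normalized counts in the leading and 0 to 205 in the second library. In fertile library 3 it had 71.6 at A2 and 160 at C2, and at A2 its leading library had 72.1.

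Bot_rep_c50682 is a homolog of carbohydrate sulfotransferase 4, which in mammals puts sulfate on sugar chains that selectins bind. The leading library ranged from 756 to 1047 and the second from 6.17 at B1 to 1138 at C2. The third library was at 0 at 6 stages and at 2.29 at D. In fertile libraries the contig had 264 in library 2 of A1, 476 in library 3 of A2, 247 in library 3 of C1 and 782 in library 3 of C2, and at most 6.90 in the others. Both groups thus held libraries with and libraries without this transcript.

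Other enzymes and related proteins had the same mix of libraries. CAP3_round1_contig_635 is a homolog of FICD, which attaches adenosine monophosphate to a chaperone of the endoplasmic reticulum. Its leading library ranged from 1520 to 2447, and the second and the third library were at 0 at all 7 stages. Fertile library 1 of B2 had 2036 and fertile library 2 of A1 had 625, and the other fertile libraries had at most 35.1. At B2 a fertile library was thus above every infertile one.

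CAP3_round1_contig_2142, a homolog of 17-beta-hydroxysteroid dehydrogenase 14, a steroid-oxidizing enzyme, was highest in the second library at 6 stages. It had 530 normalized counts there in A1, 4854 in A2, 1876 in B1, 1038 in B2, 1853 in C1, 1344 in C2 and 7.15 in D. The leading library ranged from 276 to 762 and the third from 6.65 to 21.6. Fertile library 1 of B2 had 624 and fertile library 2 of A1 had 286, so here too single fertile libraries were high.

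CAP3_round1_contig_8085, a homolog of proactivator polypeptide, the precursor of saposins, which help break down lipids in lysosomes, ranged from 302 to 1740 in the leading library. The fertile libraries had 0 to 76.6 and a median of 12.1. Bot_rep_c52008, a homolog of serine racemase, which makes D-serine, had 51.7 to 155 in the leading library. Its highest value, 536, was in the second library at D, and 303 was reached in fertile library 1 of B2 and 149 in fertile library 2 of A1. For this contig the infertile mean at D rested on the second library.

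CAP3_round1_contig_4981 and Bot_c11058 have a homolog only among uncharacterized proteins of Ciona. CAP3_round1_contig_4981 had 89.5 to 139 normalized counts in the leading library, 0 to 44.4 in the second and 0 in the third, with 72.2 in fertile library 2 of A1. Bot_c11058 had 34.8 to 113, 0 to 62.6 and 0, and 0 in all fertile libraries.

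Nuclear and RNA-handling homologs fell into those at 0 in several libraries and those with reads everywhere. Bot_c7181 is a homolog of the single-strand selective uracil DNA glycosylase, a DNA repair enzyme. It had 1873 normalized counts in the leading library at A1 and 97.8 at C2, with 0 in the third library at all stages and 0 in 19 of 21 fertile libraries. At D the second library was the higher, with 1809 against 1325. Both of the higher libraries varied widely between stages.

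Bot_rep_c35801 is a homolog of SMC2, a subunit of the condensin complex that compacts chromosomes. Its second library had 1704 at B1, 3661 at C1 and 626 at C2, each above the leading library, which ranged from 230 to 807. Fertile library 1 of B2 had 3502 and fertile library 3 of C1 had 2206, and the other fertile libraries had at most 58.6. Single libraries of both groups were high.

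Bot_c9797, a homolog of splicing factor 45, ranged from 203 to 352 normalized counts in the leading library and was at 0 in 15 of 21 fertile libraries, with a highest value of 26.0. Bot_c22908, a homolog of Sm D3, a core protein of the spliceosome, was found in every library. It had 992 to 2258 in the leading, 104 to 2411 in the second and 69.7 to 203 in the third library, against 73.8 to 282 in the fertile libraries. Bot_rep_c35638, a homolog of RPABC2, a subunit shared by the nuclear RNA polymerases, had 838 to 1475, 186 to 1537 and 53.5 to 106, against 38.7 to 434. The third library was below the highest fertile library at every stage for the Sm D3 homolog and at all but D for the RPABC2 homolog.

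Bot_c8432, a homolog of TRIM71, an RNA-binding ubiquitin ligase of embryos and stem cells, had 4146 normalized counts in the leading library in A1, 1882 in A2, 1397 in B1, 848 in B2, 183 in C1, 173 in C2 and 1142 in D. The second library was at 0 at 6 stages and at 1.85 at C2, and the third at 0 at all 7. Fertile library 2 of A1 had 307 and fertile library 1 of B2 had 273. With 1 library per stage above 0, the differences between stages have no replicate.

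The actin homolog Bot_rep_c47959, named after cytoplasmic actin 2, a main protein of the cytoskeleton, was high in both the leading and the second library. The leading library ranged from 1857 to 4982 and the second from 1010 to 2535, while the third had 104 to 154. Fertile values were 2551 in library 1 of B2, 1207 in library 2 of A1, 843 in library 3 of A2 and 568 in library 3 of C1, and between 69.6 and 145 in the others. No library of either group lay between 154 and 568.

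The member that is a homolog of heat shock cognate 71, a constitutive chaperone, differed in which libraries were high. The third library, at 194 to 518 normalized counts, was close to the leading one, at 285 to 500, and the second had 8.94 to 120. The fertile libraries ranged from 7.29 to 106. The groups did not overlap at A1, C1 and C2.

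Of the 12 members with the largest ratios, a homolog was named for 3, those of the collagen, the von Willebrand factor A domain-containing protein and FICD. Some of the others, such as CCTT6305.g1, are not in the sheets used, so whether they have a homolog is not known. CCTT6305.g1, CCTT10594.b1 and CCTT35759.g1 shared a pattern in which the third library was the next highest. For CCTT6305.g1 the leading library ranged from 4080 to 11271 normalized counts, the third from 189 to 557, the second from 0 to 15.3 and the fertile libraries from 0 to 42.2. CCTT10594.b1 had 2231 to 7114, 94.6 to 351, 0 to 31.5 and 0 to 67.5 in the same order, and CCTT35759.g1 had 3657 to 8678, 164 to 640, 0 to 69.7 and 0 to 127. In these 3 contigs the second library never exceeded the highest fertile value over all stages. Within a stage it did so only for CCTT35759.g1 at C1, where its 69.7 was slightly above the highest fertile library.

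CAP3_round1_contig_1109 and Bot_rep_c36121 were present in the second library instead. CAP3_round1_contig_1109 had 1282 normalized counts there in A1, 1780 in A2, 2005 in B1, 758 in B2, 1.39 in C1, 357 in C2 and 0 in D, and it was at 0 in the leading and the third library of all stages. Bot_rep_c36121 had 53.0, 1907, 2144, 4215, 2111, 2493 and 0 there in the same order of stages, at most 3.46 in the other infertile libraries and 382 in fertile library 1 of C1. At D both were at or near 0 in all 3 infertile libraries, and CAP3_round1_contig_1109 was also near 0 at C1.

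Bot_rep_c40888, Bot_c29368, Bot_rep_c50925 and Bot_rep_c50989 complete the 12 largest ratios, with median s between 40.0 and 58.5. Bot_rep_c40888 had 232 to 1103 normalized counts in the leading library, 427 in the second at A2, and 0 in every fertile library. Bot_rep_c50989 had 142 to 301 in the leading and 0 to 751 in the second library, and at most 5.88 in a fertile one. Bot_c29368 was at 270 in fertile library 1 of B2, above the 165 of the leading library.

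Among the 8 members with the highest infertile means, CAP3_round1_contig_162, Bot_c7750, Bot_rep_c59298 and Bot_rep_c47204 had reads in every library. CAP3_round1_contig_162 had 5161 to 11551 in the leading library and 100 to 464 in the fertile ones. Bot_c7750 had 3628 to 6328 against 255 to 923, Bot_rep_c59298 had 2399 to 5334 against 65.0 to 525, and Bot_rep_c47204 had 1982 to 3815 against 182 to 770. CAP3_round1_contig_5345 differed, at 1232 to 18068 in the leading library, 0 to 3.46 in the third and 0 to 1663 in the fertile libraries. For all 5 of these contigs the leading library was the highest infertile one at all 7 stages.

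Counted over all members, 247 of the 1267 combinations had more than 3 read pairs in only 1 of the 6 libraries, and 319 had more than 3 in all 6. Only 5 members had a single library over 3 read pairs at all 7 stages, among them the collagen homolog, and 23 had all 6 over it at all 7. Of the 103 members that the leading library topped at all stages, 42 had the second above the third library at 5 or more stages, and 30 had the third above the second. The second library topped 16 members at 5 or more stages, and the third topped 2. The list therefore holds contigs that are on or off by library as well as contigs found everywhere.

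Fertile libraries were not free of member transcripts. A fertile library reached 100 normalized counts or more at some stage for 85 of the 181 members. At B2 the highest fertile library had over 0.5 times the value of the highest infertile one for 25 members, and at D for 1. Fertile library 1 of B2 held 44 members at 100 or more and library 2 of A1 held 41, against 8 to 34 in the other fertile libraries. At the other end, 22 members had at most 3 read pairs in each of the 21 fertile libraries, and 4, Bot_rep_c40888 and Bot_c11058 among them, had none.

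Some contigs that share a homolog name with a member were higher in the fertile libraries instead. The P-selectin homolog Bot_c13044 had a median s of 0.0475 and the SMUG1-type glycosylase homolog Bot_c22058 one of 0.128, and both were higher in fertile libraries by 4-fold or more at 6 stages. The carbohydrate sulfotransferase 4 homolog Bot_rep_c48594 had 0.147, also with 6 stages. The serine racemase homolog Bot_rep_c35625 had 0.0654, with 4 stages, but was higher in infertile libraries by 4-fold or more at 1 stage. At C2 its infertile library 1 had 428 read pairs, against 12, 7 and 12 in the fertile libraries. These 4 contigs were singled out after their values were seen. Most other contigs with a member's homolog name passed the ratio in neither direction at most stages. Exceptions went in both directions. The actin homolog Bot_rep_c47438 was higher in infertile libraries by 4-fold or more at 4 stages. The P-selectin homolog CAP3_round1_contig_2334 was higher in fertile libraries by 4-fold or more at 5 stages, and the sulfotransferase homolog Bot_rep_c52352 at 6. Contigs of 1 family can share reads.

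By the prefix of their names, 44.2% of the members were Bot_rep contigs, against 25.5% of all contigs, and 33.1% were Bot_c contigs, against 48.1%. CAP3 contigs made up 12.2% of the members and 20.1% of all, and CCTT contigs 7.73% and 3.75%. The clone ends CCTT15073.b1 and CCTT15073.g1 were both members and had a Pearson r of 0.82 and a Spearman rho of 0.74 over the 42 libraries, and whether they are 1 transcript was not tested.

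Differences between stages were then tested, although they are not independent of the rule. The rule asks for a high ratio at 5 or more stages, so it favours contigs that stay high through the cycle, and the counts of members below are no evidence of a steady level. Counts were scaled over all 42 libraries and fitted with limma on log2(normalized count + 1), separately in the 21 infertile and the 21 fertile libraries. No member differed between the 7 stages among the infertile libraries at a 10% false discovery rate (FDR), of 180 members that passed the filter of a mean of at least 10. Over all contigs 1.62% were called. The 180 passed the filter in the group where the rule asks for high means, and 78 passed it in the fertile libraries. Their spread within a stage, given below, was also wide. The counts of members called, here and at stage D, therefore cannot be weighed against the shares over all contigs. None of the 180 had an unadjusted p below 0.05, and voom weights in limma also called none.

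Stage D against the mean of the other 6 stages gave 0 members in either direction, 0 of them at an unadjusted p below 0.05 by limma and 0 called with voom, against 1.38% of contigs called higher and 0.569% called lower at D. The median log2 difference at D was -0.17 for the members and 0.00 for all contigs fitted, and 108 members were lower and 72 higher. Bot_rep_c51619, with the lowest p of the members, had 162 normalized counts at D in its highest library and 863 at B1. A p that misses the threshold does not show that the members are level across the cycle.

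The spread within a stage was wide for the members. The median residual SD on the log2 scale was 2.99 for the 180 members in the infertile libraries, against 0.73 for all contigs fitted. In the fertile libraries 78 members passed the filter, with a median residual SD of 1.45 against 0.61. None of these 78 differed between stages at a 10% FDR by limma or with voom, and 1 had an unadjusted p below 0.05, against 3.28% of all contigs called. That contig was Bot_rep_c47204, which had 770, 476 and 370 normalized counts in the fertile libraries of B2 and 205, 262 and 216 in those of C2. These p-values treat libraries at different stages as independent, although genotypes recur at every stage.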

How the data were processed

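Paired-end libraries of poly(A) RNA from whole colonies were mapped by the authors with Bowtie 0.12.7 to an assembly of expressed sequence tags made from a mixture of genotypes, counted per contig, and compared at each stage with DESeq 1.10.1. Each of the 7 tables that the authors deposited gives a signal per contig and group, the mean over 3 libraries of scaled counts. The columns of fold change, log2, p-value and adjusted p-value hold the authors' comparison and were not used.

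A mean of 3 libraries is a sum of whole multiples of 3 steps. These steps were found for each of the 14 group columns, and the read pairs of each library were solved by enumeration. Each pair entered the means as 2 counts. Means above 10000 were left unsolved, except in members, and these contigs, 250 to 374 per column, held 46.8% to 74.8% of the summed signal. All others had a single solution, and 0 of 3000 decoy values per column was solved. The method was tested on simulated data. A library value is its count divided by the size factor of its stage, so levels at different stages come from tables normalized separately. For tests between stages, counts were scaled by the median of ratios over 42 libraries and fitted with limma 3.58.1 in R 4.3.3, with a mean-variance trend and Benjamini-Hochberg adjustment over all contigs fitted. The fit was tested on simulated data with the same dispersion for all contigs and no differences between genotypes. That test does not cover contigs that vary between libraries as widely as the members. Python 3.11.15 with numpy 2.4.6, pandas 2.3.3 and numba 0.67.0 was used for the rest.

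The members and gene lists were chosen with earlier results of these data known. Named contigs are the 12 members with the largest median s, the 8 with the highest median infertile mean, those with a homolog for 5 species in the supplementary sheets (up to 20 by median s, here extended to the other named homologs after the values were seen), the 3 on each side of the threshold, members passing a stage test (none) and 2 gonad genes. Homolog names were taken from those sheets, and no contig sequence was at hand. Alternatives covered pseudocounts, ratio, number of stages, scaling, filters, trend, voom, FDR and leaving out each library.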

Additional observations from a re-analysis of the deposited data

How the results depend on the processing

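The number of member contigs depends on the rule's settings. It was 348 with a pseudocount of 1, 344 with a ratio of at least 3, 85 with a ratio of at least 6, 320 with 4 or more stages, 92 with 6 or more and 52 with all 7, and 41 without the leading infertile library at every stage, an alternative added after the data were seen. The leading library was picked on the member values, so fewer members without it follow from that choice. Leaving out 1 library at its stage gave between 128 and 226 members, the lowest without infertile library 2 of B1. The 151 combinations without overlap became 151 to 238 when 1 library was left out, and moved by over 1.5 times without infertile library 3 of A1 (228), library 1 of C1 (230) or library 1 of C2 (238). No member differed between stages, or at stage D, among the infertile libraries under any alternative run, which is no evidence of a steady level. Among the fertile libraries the count was 0 to 1 when 1 library was left out, with 1 member called without library 3 of B1. The 970 combinations with over 2/3 of the sum in 1 library stayed within 1.5 times under the 3 alternatives run. No paired analysis was possible because the libraries, solved from group means, carry no label of their own, and matching them to genotypes by their values was not done. Depth limits values near 0, where 3 read pairs is the limit of detection, and contigs with group means above 10000, other than members, have no library values.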
